A study of Homo sapiens with 10 samples.

Results

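PU.1, the product of SPI1, and 9 further transcription factors of the ETS family were examined at the mRNA level in NB4 cells, a human acute promyelocytic leukemia cell line. The genes are SPI1, SPIB, ETV6, FLI1, ERG, ETS1, ETS2, ELF1, ELF4 and ELK3, taken by gene symbol among the protein-coding rows of the deposited tables, and all 10 were found in both tables, among 19957 protein-coding genes and 60603 genes in all. Messenger RNA was sequenced in 2 experiments and 10 libraries. In the knockdown experiment, cells carried either a lentiviral pLKO.1 puro vector without an insert (EV) or this vector with shA1 or shB2, short hairpin RNAs against GSE1, and were harvested 48 h after transduction. In the inhibitor experiment, cells for which no vector is named were treated for 24 h with DMSO or with 2 µM of MC2580, an inhibitor of the histone demethylase LSD1. Each of the 5 conditions had 2 libraries, all from the same cell line, and the control of the hairpins was a vector without a hairpin.

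The value analysed for each gene is the authors' base mean, a normalised read count averaged over all libraries of an experiment. In the knockdown table it covers the EV, shA1 and shB2 libraries together (6 libraries), and in the inhibitor table the DMSO and MC2580 libraries together (4 libraries). A base mean therefore gives the level of a gene in an experiment but no value per library or per condition, and carries no standard deviation. Differences between the hairpins and EV, or between MC2580 and DMSO, were not analysed here, and no test was run. In bulk RNA, fewer cells of a type and less RNA per cell cannot be told apart.

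ETS factors share a DNA-binding domain, the ETS domain, that recognises a core of GGAA on either strand of the DNA. In blood cells they set lineage and stage: PU.1 is required for the myeloid lineage and is known to act with C/EBP, IRF and RUNX factors, whereas ERG, FLI1 and ETV6 are best known in stem and progenitor cells and as partners in fusion genes of leukemias or sarcomas. The letters GGAA or TTCC within the 250 bases before a start site were therefore looked up, since ETS genes are themselves known to be regulated by ETS factors. RefSeq promoters on GRCh38.p14 were matched for 7 of the 10 genes, and SPI1, FLI1 and ETS1 had no entry. For each matched gene only its first entry was used, whereas the shares over all promoters count every entry of full length. The core is short, and 92.7% of the 35116 promoters in the table held it at least once, with a median of 3 copies. It was present in 5 of the 7 windows, with 4 copies in ETV6, 3 each in ETS2 and ELF4, 2 in ELK3 and 1 in ERG. There was no copy in the window of SPIB or ELF1. The ELF1 window (chr13:40982283-40982532, minus strand) lies inside the span given for the gene, 40931924 to 41061440. It therefore does not describe the bases before the outermost annotated start of ELF1. The ELF4 window (chrX:130111859-130112108, minus strand) lies upstream of the span given for that gene, which ends at 130110716, and does not adjoin it. The longer string GAGGAA, which contains the core and which PU.1 is known to prefer, was found in 1 of the 7 promoters, that of ETV6, against 23.6% of all promoters. The 4 windows printed here are those of the 2 lowest genes, SPIB and ERG, of ETS2, the chromosomal neighbour of ERG, and of ETV6, which held the most copies. They run 5′ to 3′ toward the start site, with each GGAA or TTCC in capitals.
ETV6 (chr12:11649424-11649673, plus strand): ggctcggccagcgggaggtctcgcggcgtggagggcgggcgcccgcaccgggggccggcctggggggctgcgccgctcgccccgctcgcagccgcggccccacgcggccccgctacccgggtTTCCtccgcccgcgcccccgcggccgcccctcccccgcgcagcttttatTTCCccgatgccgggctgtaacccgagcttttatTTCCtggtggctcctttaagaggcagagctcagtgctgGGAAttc
ETS2 (chr21:38804933-38805182, plus strand): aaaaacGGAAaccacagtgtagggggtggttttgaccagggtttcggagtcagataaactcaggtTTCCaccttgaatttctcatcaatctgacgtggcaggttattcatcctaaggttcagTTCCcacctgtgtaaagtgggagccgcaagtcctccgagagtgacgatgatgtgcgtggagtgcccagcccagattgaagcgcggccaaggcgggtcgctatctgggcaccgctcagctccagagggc
ERG (chr21:38660668-38660917, minus strand): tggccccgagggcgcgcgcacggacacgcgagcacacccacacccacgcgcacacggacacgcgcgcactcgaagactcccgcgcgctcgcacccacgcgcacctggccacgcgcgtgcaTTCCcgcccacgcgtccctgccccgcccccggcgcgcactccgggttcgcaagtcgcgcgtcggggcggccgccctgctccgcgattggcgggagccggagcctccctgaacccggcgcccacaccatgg
SPIB (chr19:50418688-50418937, plus strand): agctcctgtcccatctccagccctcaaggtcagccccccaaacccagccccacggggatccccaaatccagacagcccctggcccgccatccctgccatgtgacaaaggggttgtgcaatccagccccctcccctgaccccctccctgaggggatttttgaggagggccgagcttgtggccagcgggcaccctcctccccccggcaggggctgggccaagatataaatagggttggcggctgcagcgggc
A match is a description of the letters in the window and not a binding site. None of the 4 windows overlaps an exon in GENCODE 44, and that of ERG lies inside the span given for the gene, since the RefSeq start lies within it.

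SPI1 was the most abundant ETS gene of the family in both experiments. PU.1, which it encodes, drives the expression of granule, receptor and cytokine receptor genes in myeloid cells. SPI1 (ENSG00000066336.11) lies on the minus strand of chromosome 11 of GRCh38, from 47354860 to 47378547. Its base mean was 7723 in the knockdown table and 9239 in the inhibitor table. Divided by the 2040 bases that its annotated exons cover, the level was 3786 and 4529 per kb of exon, respectively, and these placed it above 97.5% and 97.7% of the expressed protein-coding genes, that is, those whose base mean reached 1. SPI1 alone made up 30.8% of the summed level per kb of the 28 human ETS genes in the knockdown table and 39.4% in the inhibitor table.

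SPIB, the gene of Spi-B, belongs to the same subfamily as PU.1 and is known from B cells and plasmacytoid dendritic cells. SPIB (ENSG00000269404.7) lies on the plus strand of chromosome 19, from 50418938 to 50431314. Its base mean was 27.4 in the knockdown table and 46.1 in the inhibitor table, or 6.4 and 10.8 per kb of exon. The level of SPI1 per kb was thus 592-fold that of SPIB in the knockdown table and 420-fold in the inhibitor table (274-fold and 194-fold per kb of coding sequence). An overlapping protein-coding gene on the same strand, ENSG00000142539, shares 839 exon bases with SPIB, 19.6% of its exon length, and had base means of 6.4 and 14.3. The share of the reads of SPIB that belongs to this gene was not tested.

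**Figure D1:**
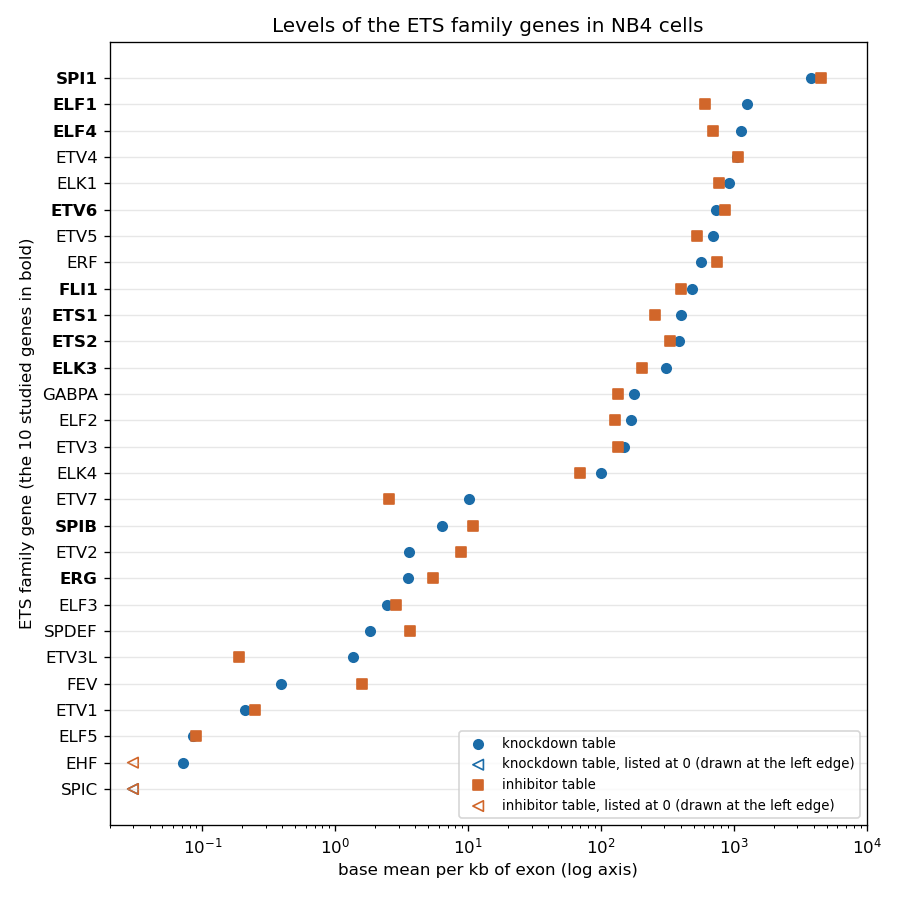
Base mean per kb of exon (log axis) of the 28 human ETS genes in NB4 cells, ordered by the knockdown table. Circles are the knockdown table, squares the inhibitor table, and open triangles genes listed at 0, and SPI1 is at the top in both tables while SPIB and ERG lie far below the other 8 of the 10 studied genes, whose names are in bold.

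ELF1 and ELF4 encode activators of the ELF subfamily, with known roles in lymphoid and myeloid cells and, for ELF4, in interferon production. ELF1 (ENSG00000120690.16; chromosome 13, 40931924 to 41061440, minus strand) had a base mean of 5543 in the knockdown table and 2698 in the inhibitor table, or 1248 and 607 per kb of exon. ELF4 (ENSG00000102034.16; chromosome X, 130063955 to 130110716, minus strand) had base means of 5919 and 3621, or 1130 and 691 per kb of exon. The 2 genes were close to each other in both tables, at a ratio of ELF1 to ELF4 of 1.1 per kb in the knockdown table and of 0.879 in the inhibitor table. No spread between libraries is known, so the order of neighbours this close cannot be given with confidence, and in the inhibitor table it turned to 1.04 when the length of the MANE Select transcript was used. SPI1 was 3.03-fold above ELF1 in the knockdown table and 7.45-fold above it in the inhibitor table.

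ETV6 encodes a transcriptional repressor with a pointed domain, required for hematopoiesis in the bone marrow and a frequent fusion partner in leukemia. ETV6 (ENSG00000139083.10; chromosome 12, 11649674 to 11895377, plus strand) had a base mean of 5255 in the knockdown table and 6197 in the inhibitor table. Per kb of exon these were 727 and 857, so that ETV6 ranked behind SPI1, ELF1 and ELF4 in the knockdown table and behind SPI1 alone in the inhibitor table. In the knockdown table this place depended on the length used, since ETV6 stood above ELF1 and ELF4 per kb of coding sequence and below FLI1 by the length of the MANE Select transcript. With SPI1, it was the well-expressed gene of the set with the higher base mean in the inhibitor table.

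FLI1 and ERG encode closely related activators of stem, megakaryocytic and endothelial cells, and differed widely in level. FLI1 (ENSG00000151702.17; chromosome 11, 128686535 to 128813267, plus strand) had base means of 3851 and 3229, or 480 and 402 per kb of exon. ERG (ENSG00000157554.19; chromosome 21, 38380027 to 38661780, minus strand) had base means of 26.7 and 41.4, or 3.53 and 5.47 per kb, the lowest of the 10 genes in both tables. Per kb, FLI1 was 136-fold above ERG in the knockdown table and 73.5-fold above it in the inhibitor table. ERG lay above 17.5% and 21.5% of the expressed protein-coding genes by level per kb.

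ETS1 and ETS2, the founding members of the family, encode activators that respond to MAP kinase signaling. ETS1 (ENSG00000134954.14; chromosome 11, 128458761 to 128587558, minus strand) had base means of 2837 and 1822, or 397 and 255 per kb of exon. ETS2 (ENSG00000157557.13; chromosome 21, 38805183 to 38824955, plus strand) had base means of 1911 and 1631, or 384 and 328 per kb. The ratio of ETS1 to ETS2 per kb was 1.03 in the knockdown table and 0.777 in the inhibitor table, where it was 1.08 per kb of coding sequence. These genes form neighbouring pairs with FLI1 and ERG. FLI1 and ETS1 lie 99.0 kb apart with 0 protein-coding genes lying whole between them, and their levels per kb differed 1.21-fold in the knockdown table and 1.58-fold in the inhibitor table, FLI1 being the higher. ERG and ETS2 lie 143.4 kb apart, also with 0 such genes between them, yet ETS2 was 109-fold above ERG per kb in the knockdown table and 59.9-fold above it in the inhibitor table. The promoter window of ERG printed above held 1 copy of the core and that of ETS2 held 3, which is the median of all promoters. Whether the number of copies bears on the levels was not tested.

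ELK3 encodes a ternary complex factor that acts with SRF and represses or activates its targets depending on phosphorylation. ELK3 (ENSG00000111145.8; chromosome 12, 96194375 to 96269824, plus strand) had base means of 1426 and 948, or 307 and 204 per kb of exon, the lowest of the 8 well-expressed genes in both tables. Its partner SRF had 771 per kb in the knockdown table and 886 in the inhibitor table. FLI1, ETS2 and ELK3 overlap annotated antisense RNAs: FLI1 shares 162 exon bases with SENCR, with base means of 16.4 and 20.8, and the other overlapping RNAs of FLI1, ETS2 and ELK3 had base means between 0 and 2.98. The library kit does not keep the strand, so that reads in these stretches cannot be assigned to either strand.

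Set against all expressed protein-coding genes, numbering 14950 in the knockdown table and 15100 in the inhibitor table, 8 of the 10 ETS genes lay above the median base mean of 704 and 635, respectively. Their percentiles by base mean ran from 63.6 for ELK3 to 93.4 for SPI1 in the knockdown table and from 57.4 to 94.9 for the same genes in the inhibitor table. SPIB and ERG were at percentiles 21.8 and 21.7 in the knockdown table and 26.2 and 25.5 in the inhibitor table. By level per kb the middle of the set was dense, since FLI1, ETS1, ETS2 and ELK3 spanned 307 to 480 per kb in the knockdown table and 204 to 402 in the inhibitor table.

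**Figure D2:**
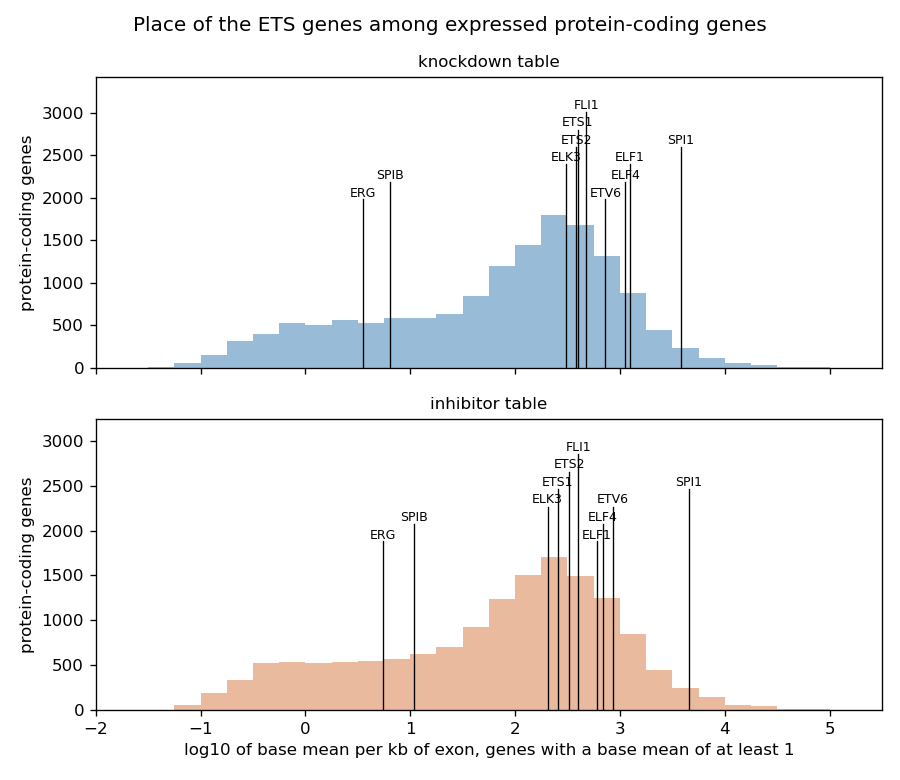
Number of protein-coding genes (vertical axis) by log10 of base mean per kb of exon (horizontal axis) in the knockdown table (upper) and inhibitor table (lower), for the expressed genes, with black lines at the 10 ETS genes. SPI1 stands in the upper tail, ERG and SPIB in the low shoulder, and the other 7 around or above the peak.

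Within the ETS family, 24 of 28 genes reached a base mean of 1 in each table and 20 of 28 reached 10. Among all 19957 protein-coding genes, 14950 reached 1 in the knockdown table and 15100 in the inhibitor table. The 10 genes carried 68.8% of the family's summed level per kb in the knockdown table and 68.7% in the inhibitor table, and the other 18 carried 31.2% and 31.3%. SPI1, ELF1 and ELF4 were the highest genes in the knockdown table, whereas SPI1, ETV4 and ETV6 were the highest in the inhibitor table. ETV4, a PEA3 subfamily factor, had 1048 and 1072 per kb of exon and so exceeded 9 of the 10 genes in the inhibitor table. SPIC, which encodes a further relative of PU.1 known from red pulp macrophages, was listed at 0 in both tables. EHF, an epithelial factor, had a base mean of 0.476 in the knockdown table and was listed at 0 in the inhibitor table. In both tables a gap parted 16 genes, of which the lowest was ELK4 at 100 and 69.9 per kb, from 12 genes at no more than 10.2 and 10.8 per kb. SPIB and ERG were on the low side of this gap and the other 8 of the 10 genes on the high side. ELK4 was named after its values were seen.

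The mRNAs of proteins known to act with ETS factors were examined next. All 12 genes of the partner list reached a base mean of 1 in each table, as did 14950 and 15100 of all 19957 protein-coding genes. The median level of the 12 genes was 456 per kb of exon in the knockdown table and 382 in the inhibitor table. These values were close to the medians of 438 and 365 of the 10 ETS genes. CEBPA, the C/EBP factor of granulocyte commitment, had 2500 and 2423 per kb, and CEBPE, a factor of late granulocyte maturation, had 1283 and 2833. Per kb, SPI1 was 1.51-fold above CEBPA in the knockdown table and 1.87-fold above it in the inhibitor table. CBFB, the partner of RUNX1, had 1156 and 813 per kb. At the low end were GATA1, an erythroid factor that is known to bind and oppose PU.1, with 16.7 and 32.6 per kb, and IRF4, a lymphoid partner of PU.1 and Spi-B, with 3.33 and 0.643 per kb.

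Of 15 myeloid genes known as PU.1 targets, 14 reached a base mean of 1 in each table, as did 14950 and 15100 of all 19957 protein-coding genes. Of the 15, 9 in the knockdown table and 10 in the inhibitor table lay at or above the median level per kb of expressed genes. MPO, the myeloperoxidase of azurophil granules, had 114471 and 186315 per kb of exon. LYZ, lysozyme, had 2855 and 5364 per kb, and PRTN3, proteinase 3, had 2269 and 3937. The low end held ELANE, neutrophil elastase, at 1.07 and 3.76 per kb, and CSF2RA, a chain of the GM-CSF receptor, which lies in the pseudoautosomal region, has a row for each copy and was listed at 0 in both rows of both tables. Whether these low values reflect expression or the annotation and quantification of the genes was not tested.

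**Figure D3:**
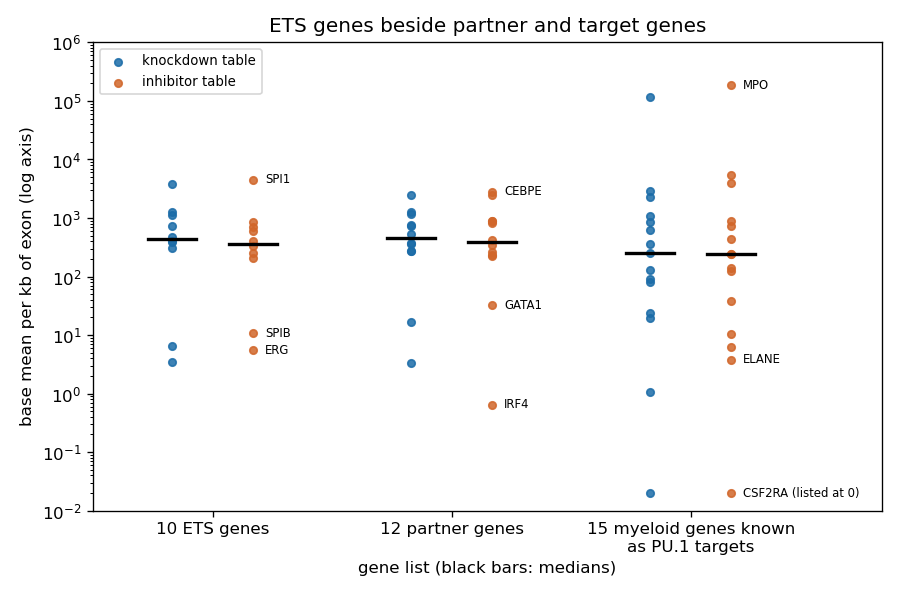
Base mean per kb of exon (log axis) of the 10 ETS genes, the 12 partner genes and the 15 myeloid genes known as PU.1 targets, with 1 point per gene and table, and black bars at the medians. The medians of the ETS and partner genes are close (438 and 456 per kb in the knockdown table), and the targets spread most widely, from CSF2RA, drawn near the lower edge because both of its rows are listed at 0, which need not mean that it was not expressed, to MPO.

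The identity of the cells was checked with marker genes. Of 7 promyelocyte markers, 6 lay at or above the median level per kb of expressed genes in both tables, the exception being ELANE, whose base mean was 1.1 in the knockdown table and 3.87 in the inhibitor table. By the same measure, 1 of 3 T cell markers, CD3D, and 1 of 3 monocyte markers, CSF1R, lay at or above the median in both tables. For the B cell and megakaryocyte lists the count was 0 of 3. The base means of the B cell markers summed to 61.2 and 47.7. Those of the T cell list summed to 881 and 876, of which CD3D had 866 and 869 and CD3E had 1.55 and 2.98. The megakaryocyte list summed to 660 and 549, nearly all of it from ITGA2B, with PF4 listed at 0 in both tables and GP9 at 0 and 0.28. The monocyte list summed to 700 and 747, nearly all of it from CSF1R at 668 and 729. CD14 was at 31.6 and 17.5 and FCGR3A at 0.256 and 0.207. GSE1, the target of the hairpins, had a base mean of 2963 in the knockdown table and 4441 in the inhibitor table, and KDM1A, which encodes LSD1, had 7648 and 6285. As means over control and treated libraries, these values do not check the knockdown.

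Set side by side, the tables placed 4 of the 10 ETS genes higher and 6 lower in the inhibitor experiment. The tables were normalised separately by the authors and differ in vector, harvest time and treatment, whose parts in a ratio cannot be told apart. Over the 12354 protein-coding genes that reached a base mean of 10 in both tables, the median log2 ratio of the inhibitor table to the knockdown table was -0.07, with quartiles of -0.38 and 0.24. The median over the 10 ETS genes was -0.24. ELF1 departed most, at a log2 ratio of -1.04, followed by ELF4 at -0.71, ETS1 at -0.64 and ELK3 at -0.59. FLI1 and ETS2 lay within the quartiles of all genes at -0.25 and -0.23. SPIB and ERG were higher in the inhibitor table, at 0.75 and 0.63, on base means of at most 46.1, whereas SPI1 and ETV6 were at 0.26 and 0.24. Past 1.5-fold, 2 of the 10 genes were higher, against 7.67% of all genes, and 4 of the 10 were lower, against 14.3% of all genes. With base means divided by their table's sum, the counts were again 2 (6.94% of all genes) and 4 (15.1%). With the tables centred on the median gene, 2 genes were higher (9.82% of all genes) and 2, ELF1 and ELF4, were lower (11.8%). No error can be given for these ratios.

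**Figure D4:**
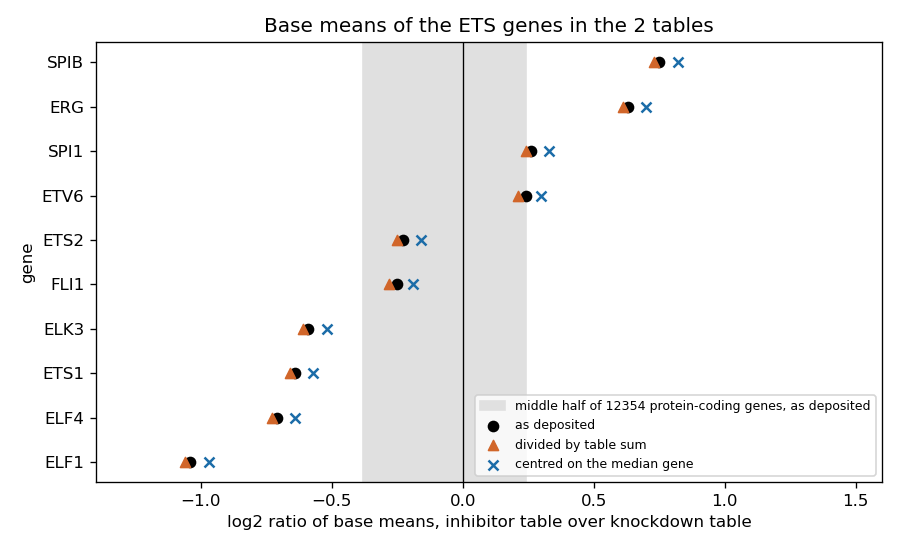
Log2 ratio of the base mean in the inhibitor table to that in the knockdown table (horizontal axis) for the 10 ETS genes (vertical axis), as deposited (circles), divided by each table's sum (triangles) and centred on the median gene (crosses). The grey band is the interquartile range of 12354 protein-coding genes as deposited, and it stands behind the rescaled points too. Quartiles were -0.40 and 0.21 with division by the table's sum, and -0.31 and 0.30 with centring. ELF1, ELF4, ETS1 and ELK3 lie to the left of the band under each scaling, while SPIB and ERG lie to its right. SPI1, at 0.26 as deposited, lies just beyond its right edge at 0.24.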

How the data were processed

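Illumina TruSeq RNA v2 libraries of NB4 cells were made by the authors, mapped to hg38 with STAR (2.7 per the labels) and quantified with RSEM, and the authors fitted DESeq2. The deposited signal values used here are the base means the authors obtained from DESeq2, normalised counts averaged over the 6 libraries of the knockdown or the 4 of the inhibitor experiment. They sum to 40543130 and 41201112. In the knockdown table the base means of both hairpins are identical. The remaining columns hold the authors' own comparisons (log2 fold changes, standard errors, Wald statistics and p-values) and were not used. Of the base means between 0 and 1, 96.3% and 93.5% are distinct after rounding to 9 decimals, so no common step per read was found and the depth of each library is unknown.

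Base means were divided by the union of annotated exons (GENCODE release 44, GRCh38; the annotation release of the authors is not given in the sources used here), which matched 60261 of 60558 genes, the second copies of pseudoautosomal genes left out. Percentiles are the shares of expressed protein-coding genes (base mean 1 or more) that lie lower. The calculation of ratios and percentiles was tested on simulated data. The named genes are the 10 ETS genes, GSE1, KDM1A, the cell type markers, and the 3 highest and 2 lowest genes of each list by level per kb and any listed at 0. The result of a further marker list is not reported here. Genes and lists were chosen with earlier results of these data known. Tools were Python 3.11.15, pandas 2.3.3 and matplotlib 3.10.9.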

Additional observations from a re-analysis of the deposited data

How the results depend on the processing

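The median log2 ratio of the 10 ETS genes between the tables, -0.24 as deposited, was -0.26 with base means divided by their table's sum and -0.17 with the tables centred on the median gene. The number of genes more than 1.5-fold lower in the inhibitor table was 4 as deposited and 2 after centring, as ETS1 moved to a log2 ratio of -0.57 and ELK3 to -0.52, and the number more than 1.5-fold higher was 2 under each scaling. No gene of the 10 changed its direction under these scalings. The number of ETS genes at or above the median of expressed protein-coding genes was 8 in each table and, with a floor of 10 in place of 1, 8 in the knockdown and 7 in the inhibitor table. Of the 45 pairs of the 10 genes, 43 in the knockdown and 42 in the inhibitor table kept the order of their levels when coding length replaced exon length, a choice made after seeing the data, as was the transcript length of MANE Select, which kept 44 and 42, and without division by length 44 and 43 did. SPI1 was first and SPIB and ERG last under each, and the changes of place were these. In the knockdown table FLI1 passed ETV6 by transcript length, ETV6 passed ELF1 and ELF4 by coding length, and ELF4 passed ELF1 without length. In the inhibitor table FLI1 passed ELF1 and ELF4 by transcript and coding length and ELF1 alone without length, ELF1 passed ELF4 by transcript length, and ETS1 passed ETS2 by coding length and without length. By coding length SPI1 was 274-fold above SPIB in the knockdown table and 194-fold in the inhibitor table, and ETS2 was 73-fold and 40.2-fold above ERG. The coding length from RefSeq proteins was not run. No paired analysis was possible because the values analysed are means over all libraries of an experiment and come from no test, and for the same reason no replicate could be left out.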
